A study of Rattus norvegicus with 5 samples.

Results

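The glucose and fatty acid fuel genes described here are 8 genes of the uptake and use of these 2 fuels in heart cells. They were taken by Ensembl identifier from a list of 8, and all 8 were found in each of the 5 tables, among 15074 genes that every table listed. The list holds Slc2a1 (ENSRNOG00000007284) and Slc2a4 (ENSRNOG00000017226), Hk2 (ENSRNOG00000006116) and Ldha (ENSRNOG00000013009), Pdk4 (ENSRNOG00000009565), and Cd36 (ENSRNOG00000005906), Fabp3 (ENSRNOG00000012879) and Cpt1b (ENSRNOG00000010438). The tables name genes by identifier alone, so each symbol comes with the list and was not checked against a second table.

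Ventricular cells, myocytes together with non-myocytes, were isolated from wild-type Sprague Dawley rats at P2 and kept as primary monolayers. All cultures received an adenovirus, which carried either GFP, the control, or TBX18, a T-box transcription factor. The title of the series names TBX18-driven conversion of myocytes of the ventricle into pacemaker cells as its subject. There were 5 groups. GFP and TBX18 cultures were each collected at day 3 and at day 14, and a further TBX18 culture of day 14 had 0.2 µM A83-01, an inhibitor of TGF-beta receptors. The labels disagree on the A83-01 culture: its title and description give day 14, its treatment field gives 3 days, and its exposure length is therefore unsettled. The promoter that drove the transgenes is not given in the sources used here. Each group was 1 droplet-based 3' library, so no difference has a replicate check, no p-value is given, and all 95% intervals cover counting error only.

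The libraries held 6424 to 8859 cell barcodes, with median depths of 15610 to 28566 UMIs (a UMI marks 1 captured RNA molecule). Pairs of libraries shared 7 to 20 barcodes. EGFP was read at 57.5 and 64.3 counts per 1000000 UMIs (CPM) in the GFP libraries and in at most 1 UMI elsewhere, and hTBX18 at 12.7 CPM in the TBX18 library of day 3, 2.30 CPM in that of day 14 and 3.24 CPM in that with A83-01, with 0 UMIs under GFP. Cells were clustered in each library without the 8 genes or the virus features, and the clusters were joined into 2 compartments. The defining markers of myocytes and stromal cells could not be read without gene names, so the compartments carry no cell type name. Compartment 1 is the one with more EGFP (96.7 against 6.13 CPM in GFP at day 3). In the order GFP day 3, TBX18 day 3, GFP day 14, TBX18 day 14 and TBX18 with A83-01, it held 4501, 3141, 2015, 1268 and 2449 cells, and compartment 2 held 3131, 2951, 4033, 6627 and 4716. In 3' libraries a UMI count does not grow with gene length, and levels are compared here between cells and libraries, not ranked between genes.

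A heart cell takes up glucose through facilitative transporters and fatty acids through membrane proteins, and both routes end in mitochondrial oxidation. The fetal and newborn ventricle relies strongly on glycolysis and lactate, and after birth the myocyte turns to fatty acid oxidation. Slc2a1 encodes GLUT1, the transporter of basal glucose uptake, and Slc2a4 encodes GLUT4, the insulin-responsive transporter of muscle and fat. Hk2, a hexokinase, phosphorylates glucose and traps it in the cell, and Ldha, the A subunit of lactate dehydrogenase, interconverts pyruvate and lactate. Pdk4 is a kinase that inhibits pyruvate dehydrogenase and so keeps carbon from glucose out of mitochondria. Cd36 takes up long-chain fatty acids, Fabp3 binds them in the cytoplasm, and Cpt1b, the muscle form of carnitine palmitoyltransferase, commits them to mitochondrial import.

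Slc2a1, Hk2 and Ldha were the members that were higher together by more than 2-fold in compartment 2 with TBX18 at day 3, and their promoters are shown for that reason. The sequences are the 250 bases upstream of the start in RefSeq, build GRCr8: Slc2a1 at chr5:138002272-138002521 on the plus strand, Ldha at chr1:106507842-106508091 on the plus strand and Hk2 at chr4:116841276-116841525 on the minus strand. Each is written 5' to 3' on the gene's strand. Capitals mark matches, on either strand, to ACGTG or GCGTG, the core letters of a hypoxia response element.
Slc2a1: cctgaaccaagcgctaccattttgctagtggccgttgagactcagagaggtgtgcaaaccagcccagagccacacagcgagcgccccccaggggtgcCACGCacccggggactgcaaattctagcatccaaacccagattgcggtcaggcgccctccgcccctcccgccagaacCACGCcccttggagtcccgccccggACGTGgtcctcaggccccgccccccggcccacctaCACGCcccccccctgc
Ldha: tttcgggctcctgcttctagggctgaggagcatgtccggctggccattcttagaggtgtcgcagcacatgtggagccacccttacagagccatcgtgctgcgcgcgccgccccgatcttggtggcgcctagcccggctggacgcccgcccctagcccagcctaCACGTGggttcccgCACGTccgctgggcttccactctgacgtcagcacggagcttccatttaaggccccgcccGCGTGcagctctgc
Hk2: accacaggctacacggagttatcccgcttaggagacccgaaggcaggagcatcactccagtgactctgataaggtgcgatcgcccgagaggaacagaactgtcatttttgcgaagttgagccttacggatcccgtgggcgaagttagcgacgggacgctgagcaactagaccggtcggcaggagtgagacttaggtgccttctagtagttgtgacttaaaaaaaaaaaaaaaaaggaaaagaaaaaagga
The Slc2a1 window held 1 match to ACGTG and 3 to GCGTG, and the Ldha window held 3 and 1, of which a palindromic CACGTG counts as 2 overlapping matches. The Hk2 window held 0 of either. The windows of Pdk4 and Fabp3 also held 0 of either, and that of Cd36 held 1 match to ACGTG and 0 to GCGTG. Cd36 was lower with TBX18 at day 3 in the same compartment (log2 ratio -0.65, 95% interval -1.02 to -0.29). That ratio rests on 156 UMIs with GFP and 109 with TBX18. The cluster with the most Cd36 was at 12.2 CPM (266 cells) with GFP and 18.0 CPM (153 cells) with TBX18. The other compartment 2 cells, without clusters of low depth, were at 1.32 and 0.509 CPM. Cd36 in compartment 2 was 3.58% and 3.94% of its level in compartment 1, where it was also lower with TBX18. The part of free RNA in these levels was not tested. Over 33469 promoter windows of the same length, ACGTG was in 16.6% and GCGTG in 25.9%. The half-site of T-box factors, searched as GGTGTGA, was in 3.22% of these windows and in those of 0 of the 6 members with an entry (Slc2a1, Hk2, Ldha, Pdk4, Cd36 and Fabp3). A match is a run of letters, not a measured binding site.

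The genes for muscle-type fuel handling were concentrated in compartment 1. Across the 5 libraries, Slc2a4 was 37.8 to 61.1 times higher in compartment 1 than in compartment 2, Cpt1b 42.2 to 80.8 times, Cd36 18.1 to 45.7 times and Fabp3 16.5 to 37.4 times. Pdk4 was 3.01 to 25.2 times higher, on as few as 3 UMIs in compartment 2, and Ldha 1.75 to 3.77 times. Slc2a1 and Hk2 did not keep 1 direction: the ratio of compartment 1 to compartment 2 ran from 3.66 down to 0.553 for Slc2a1 and from 1.03 down to 0.426 for Hk2. None of these genes entered the clustering, but other genes of the same cells did, so these ratios are descriptions.

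In the same order of libraries, Slc2a4 in compartment 1 was at 67.1, 48.7, 72.7, 35.6 and 98.3 CPM. Its level was lowest with TBX18 at day 14 and highest with A83-01. In compartment 2, Slc2a4 was at 1.49, 1.06, 1.46, 0.583 and 2.60 CPM, which amounts to 1.64% to 2.65% of its compartment 1 level. Free RNA in droplets gives such low counts in cells that do not make a transcript, and its part in these levels was not tested. Slc2a1 in compartment 1 was at 34.4, 36.6, 52.6, 33.2 and 21.4 CPM, lowest with A83-01. In compartment 2 it was at 9.40, 24.3, 28.4, 29.5 and 38.7 CPM, so that the library that was lowest for Slc2a1 in compartment 1 was highest in compartment 2. The compartments exchanged order for this gene: compartment 1 was above compartment 2 in 4 libraries, by least in TBX18 at day 14 (1.12-fold, 95% interval 1.03 to 1.22), and below it with A83-01 (0.553-fold, 0.515 to 0.594).

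Hk2 in compartment 1 was at 21.5, 40.0, 184.0, 99.45 and 149.8 CPM. In compartment 2 it was at 21.0, 69.8, 183.5, 233.6 and 293.1 CPM. Both GFP libraries had Hk2 at nearly the same level in the 2 compartments, with ratios of 1.03 (0.961 to 1.09) at day 3 and 1.00 (0.972 to 1.03) at day 14. The 3 TBX18 libraries all had more Hk2 in compartment 2, with ratios of 0.573 at day 3, 0.426 at day 14 and 0.511 with A83-01. Ldha in compartment 1 was at 2223, 3520, 1879, 1503 and 1953 CPM. Its counterpart in compartment 2 was 589.6, 1704, 995.0, 856.5 and 753.2 CPM, and in both compartments TBX18 at day 3 was the highest library for Ldha. Pdk4 was scarce, at 1.58, 0.888, 3.00, 3.54 and 1.92 CPM in compartment 1. In compartment 2 Pdk4 rested on 8, 3, 11, 25 and 51 UMIs in all.

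Fabp3 in compartment 1 was at 2352, 1315, 1722, 1119 and 1533 CPM. Both TBX18 libraries without inhibitor were below the GFP library of their day. In compartment 2 Fabp3 was at 118.4, 79.6, 46.0, 39.7 and 72.8 CPM. Cd36 in compartment 1 was at 56.1, 32.6, 38.8, 31.0 and 48.6 CPM, highest in GFP at day 3. Cd36 in compartment 2 stayed between 1.06 and 2.04 CPM. Cpt1b in compartment 1 was at 31.8, 32.7, 89.9, 57.3 and 90.8 CPM, so that the day 3 libraries were nearly level and all 3 day 14 libraries were higher. Cpt1b in compartment 2 stayed between 0.572 and 1.28 CPM. Over libraries, the compartment 2 level was 2.67% to 6.05% of that in compartment 1 for Fabp3 and 2.18% to 5.52% for Cd36. For Cpt1b it was 1.23% to 2.38%. The part of free RNA in these compartment 2 levels, and in their ratios between libraries, was not tested. The levels of Cd36 and Cpt1b are less certain than the rest: 62.2% to 77.2% of the nonzero Cd36 values and 7.02% to 14.7% of the Cpt1b values were not whole UMIs, against 0 for the other 6 genes. Fractions arise where counting divides a read between features, and which features shared these reads was not tested.

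**Figure D1:**
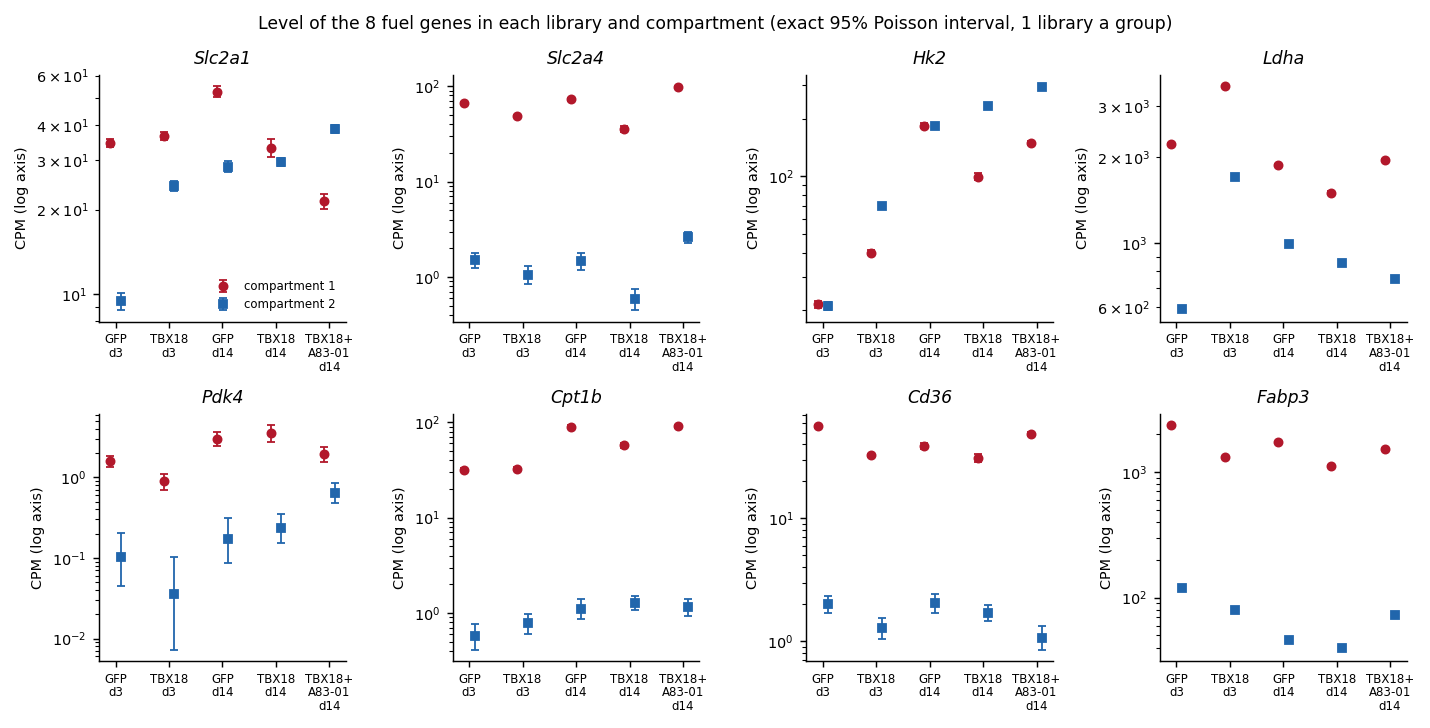
Level of each of the 8 genes in CPM (log axis, scaled separately for each gene) in the 5 libraries, with circles for compartment 1, squares for compartment 2 and bars for exact 95% Poisson intervals. Slc2a4, Cpt1b, Cd36, Fabp3 and Pdk4 lie higher in compartment 1 in all 5 libraries, while Hk2 lies higher in compartment 2 in the 3 TBX18 libraries.

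Shares of cells with a UMI were compared after each cell was thinned to 5000 UMIs, which left out 0 to 126 shallower cells per library and compartment. Slc2a4 was then found in 14.5% to 38.0% of compartment 1 cells, over libraries, and in 0.408% to 1.27% of compartment 2 cells. Cpt1b was found in 14.1% to 34.8% of compartment 1 cells and in 0.260% to 0.721% of compartment 2 cells. Without thinning, the ranges were 38.4% to 77.6% and 0.920% to 3.92% for Slc2a4, and 41.5% to 73.8% and 1.15% to 1.89% for Cpt1b, whose fractional values were rounded first. Compartment 2 serves as the low reference for these 2 genes. Hk2 was different: in GFP at day 3 it was found in 10.6% (9.71% to 11.6%) of compartment 1 cells and in 9.64% (8.62% to 10.7%) of compartment 2 cells, with median depths of 22324 and 23541 UMIs before thinning. With A83-01 the Hk2 shares were 46.1% and 63.6%. Without thinning, the Hk2 shares in GFP at day 3 were 35.6% and 34.7%.

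With TBX18 at day 3, 3 of the 4 glucose genes were higher in compartment 2 than with GFP. Hk2 went from 21.0 to 69.8 CPM, a log2 ratio of 1.74 (1.66 to 1.82). Ldha went from 589.6 to 1704 CPM, a log2 ratio of 1.53 (1.52 to 1.55), and Slc2a1 from 9.40 to 24.3 CPM, a log2 ratio of 1.37 (1.25 to 1.49). The fourth, Slc2a4, was at 1.49 CPM with GFP and 1.06 CPM with TBX18. Fabp3 moved the other way, from 118.4 to 79.6 CPM, a log2 ratio of -0.57 (-0.62 to -0.53). These Fabp3 levels were 5.03% and 6.05% of those in compartment 1, where Fabp3 was also lower with TBX18. The part of free RNA in them was not tested. A gene was counted as past 2-fold when log2 of (CPM + 0.5) differed by at least 1. By that count 3 of the 8 members passed, all 3 upward, while 1.9% of the 4989 genes whose mean over the libraries reached 20 CPM in this compartment passed in either direction. Of the 8, 4 had such a mean (Slc2a1, Hk2, Ldha and Fabp3). The median log2 ratio was 0.04 over the 8 members and -0.08 over all genes tested, and median-of-ratios scaling moved the ratios by 0.10.

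In compartment 1 at day 3, Hk2 and Ldha were again higher with TBX18, and the fatty acid genes Fabp3 and Cd36 were lower, while Cpt1b was level. Hk2 had a log2 ratio of 0.90 (0.82 to 0.97) and Ldha of 0.66 (0.66 to 0.67). Fabp3 was at -0.84 (-0.85 to -0.83), Cd36 at -0.79 (-0.85 to -0.72) and Slc2a4 at -0.46 (-0.52 to -0.41). Slc2a1 was nearly level, at 0.09 (0.02 to 0.16), and the interval of Cpt1b held 0 (0.04, -0.03 to 0.11). Of the 8 members, 0 passed 2-fold, against 8.74% of 4508 genes tested, and the 8 had a median log2 ratio of -0.21 against -0.09 over all genes. A share within 1 library needs no scaling between libraries: of the UMIs of Fabp3 and Ldha together, Fabp3 made up 51.4% in GFP and 27.2% in TBX18 at day 3.

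At day 14 compartment 1 had less of nearly every member with TBX18 than with GFP. Slc2a4 went from 72.7 to 35.6 CPM, a log2 ratio of -1.03 (-1.15 to -0.91). Hk2 went from 184.0 to 99.45 CPM, a log2 ratio of -0.89 (-0.96 to -0.82), opposite in sign to its ratio at day 3. Slc2a1 (-0.66), Cpt1b (-0.65), Fabp3 (-0.62), Ldha (-0.32) and Cd36 (-0.32) were lower with intervals below 0. Pdk4 was at 3.00 and 3.54 CPM, and its interval held 0 (-0.22 to 0.69). Slc2a4 alone of the 8 passed 2-fold, with 3.82% of all genes tested doing so (133 upward and 39 downward). Slc2a4 lies close to the threshold: with a pseudocount of 5 CPM it no longer passed, and with median-of-ratios scaling Hk2 passed as well. The median log2 ratio was -0.63 over the 8 members and 0.20 over all genes. Median-of-ratios scaling moved the typical ratio of this comparison by -0.23, and the median over all genes was then -0.03.

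In compartment 2 at day 14, Slc2a1 and Ldha were not higher with TBX18, unlike at day 3. Slc2a1 was at 28.4 CPM with GFP and 29.5 CPM with TBX18 (log2 ratio 0.06, -0.03 to 0.14), and Ldha was slightly lower with TBX18 (-0.22, -0.23 to -0.20). Hk2 was higher, with a log2 ratio of 0.35 (0.32 to 0.38). Fabp3 was lower, at -0.21 (-0.28 to -0.15). Slc2a4 went from 93 to 62 UMIs, 1.46 to 0.583 CPM, a log2 ratio of -1.32 (-1.81 to -0.84) that did not pass 2-fold once 0.5 CPM was added. Of the 8 members 0 passed 2-fold, against 2.67% of genes tested, with median log2 ratios of -0.07 and 0.13. Median-of-ratios scaling moved these ratios by -0.15.

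Adding A83-01 to TBX18 went with a different transporter makeup of compartment 1. Slc2a4 went from 35.6 CPM without to 98.3 CPM with the inhibitor, 2.76-fold (2.56 to 2.99). Slc2a1 went from 33.2 to 21.4 CPM, 0.644-fold (0.585 to 0.710). Of the UMIs of both transporters, Slc2a4 made up 51.7% (49.1% to 54.3%) without and 82.1% (81.1% to 83.1%) with the inhibitor. It made up 66.1% in GFP at day 3, 57.1% in TBX18 at day 3 and 58.0% in GFP at day 14, so the A83-01 library had the highest share and the TBX18 library of day 14 the lowest. The fatty acid genes were higher as well, with log2 ratios of 0.66 (0.57 to 0.76) for Cpt1b, 0.65 (0.52 to 0.78) for Cd36 and 0.45 (0.43 to 0.48) for Fabp3. Hk2 (0.59) and Ldha (0.38) were also higher, and Pdk4 went from 3.54 to 1.92 CPM (74 and 93 UMIs).

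Of the 8 members, 1 passed 2-fold in that comparison (Slc2a4, upward), against 10.7% of the 4508 genes tested. Of these genes, 23 passed upward and 458 downward. The median log2 ratio of all genes was -0.38 while that of the 8 members was 0.52. Scaling by median of ratios added 0.51 to the typical ratio in compartment 1, and the median over all genes was then 0.14. Slc2a4, Hk2, Cpt1b and Cd36 then passed 2-fold, against 5.52% of genes tested, and the log2 ratio of Slc2a1 was -0.11 (with 0.5 CPM added). TBX18 at day 14 is the reference here and the numerator in the comparison with GFP, so the low values of that 1 library, which had the fewest compartment 1 cells (1268), enter both.

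In compartment 2, A83-01 went with more Fabp3, from 39.7 to 72.8 CPM (log2 ratio 0.88, 0.82 to 0.93), and with modestly more Slc2a1 (0.39, 0.32 to 0.46) and Hk2 (0.33, 0.30 to 0.35). Fabp3 was also higher with A83-01 in compartment 1 (0.45), and the part of free RNA in its compartment 2 level was not tested. Ldha was lower, at -0.19 (-0.20 to -0.17). Slc2a4 went from 62 to 208 UMIs, 0.583 to 2.60 CPM, 4.47-fold (3.35 to 6.03), and was the 1 member past 2-fold, upward. Of genes tested, 8.56% passed (125 upward and 302 downward). Slc2a4 is below the minimum mean of 20 CPM in this compartment, and its level in compartment 1 was also higher with A83-01, by 2.76-fold. Pdk4 went from 25 to 51 UMIs, a log2 ratio of 1.44 (0.73 to 2.19) that did not pass once 0.5 CPM was added. The median log2 ratio was 0.36 over the 8 members and -0.09 over all genes, and median-of-ratios scaling moved the ratios by 0.13.

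**Figure D2:**
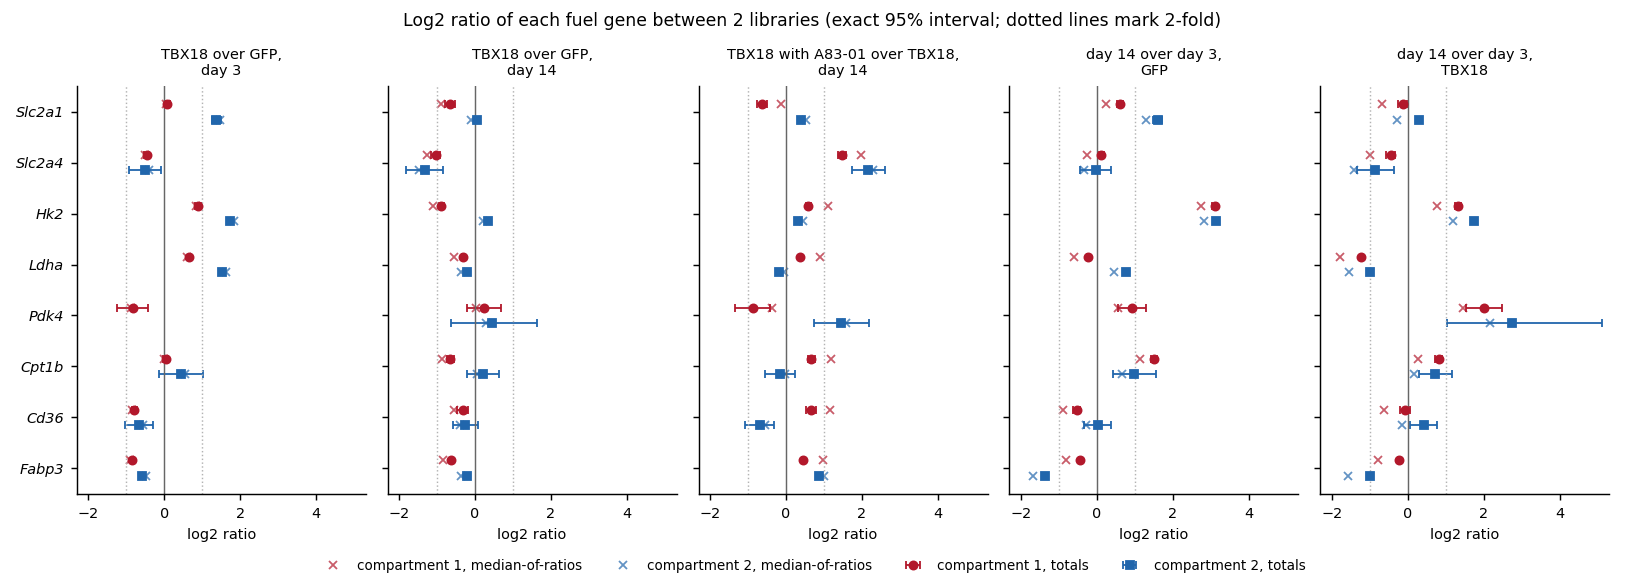
Log2 ratio of CPM for each gene in the 5 comparisons between libraries, with circles for compartment 1, squares for compartment 2, bars for exact 95% intervals and crosses for the same ratio under median-of-ratios scaling; ratios with fewer than 20 UMIs in both libraries together are not drawn. Slc2a1, Hk2 and Ldha pass 2-fold in compartment 2 in the first panel, and Slc2a4 lies at -1.03 in the second panel and 1.47 in the third in compartment 1.

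Between day 3 and day 14 with GFP, the largest difference among the members was in Hk2, in both compartments. Hk2 was 8.56-fold higher at day 14 in compartment 1 (8.15 to 9.00) and 8.75-fold higher in compartment 2 (8.31 to 9.22). With TBX18, Hk2 was 2.49-fold higher (2.35 to 2.62) in compartment 1 and 3.35-fold higher (3.25 to 3.44) in compartment 2, from a day 3 level that was already above that of GFP. Days differ in the unit, cell filter and gene list of the deposited tables as well as in time. UMIs were restored for day 14, and only genes that every table listed were used. With day 3 cells held to the day 14 range of genes and UMIs, Hk2 with GFP in compartment 1 had a log2 ratio of 3.01. The ratio without that limit was 3.07 (both with 0.5 CPM added). What remains of these differences cannot be told apart from time. A share within 1 library avoids the unit: of the UMIs of Hk2 and Ldha in compartment 1, Hk2 made up 0.958% in GFP at day 3 and 8.92% in GFP at day 14, and in compartment 2 it made up 3.43% and 15.6%.

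Cpt1b was the fatty acid gene that was higher at day 14 in compartment 1. It was 2.83-fold higher with GFP (2.69 to 2.97) and 1.76-fold higher with TBX18 (1.64 to 1.88). Fabp3 and Cd36 did not follow it: with GFP they had log2 ratios of -0.45 (-0.46 to -0.44) and -0.53 (-0.62 to -0.45). Of the UMIs of Cpt1b and Fabp3 together, Cpt1b made up 1.33%, 2.42%, 4.96%, 4.87% and 5.59% in the order of libraries above, so that every day 14 library was above every day 3 library. Slc2a4 was nearly level with GFP (0.12, 0.05 to 0.18) and its sign turned under median-of-ratios scaling. Ldha was lower at day 14 with TBX18, at -1.23 (-1.25 to -1.21), and less so with GFP, at -0.24 (-0.26 to -0.23). Pdk4 was at 0.888 CPM (80 UMIs) at day 3 and 3.54 CPM (74 UMIs) at day 14 with TBX18, 3.99-fold higher (2.87 to 5.54), a larger ratio than that of Hk2 but on few UMIs.

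In compartment 1, 2 of the 8 members passed 2-fold between days with GFP (Hk2 and Cpt1b, upward), against 18.7% of genes tested. With TBX18, 3 passed (Hk2 and Pdk4 upward, Ldha downward), against 20.2% of genes tested. With shares this large over the genes tested, no result about the members is read from these counts. Median log2 ratios were 0.36 over the members and 0.10 over all genes with GFP, and -0.10 and 0.39 with TBX18. Median-of-ratios scaling moved the ratios by -0.37 with GFP and by -0.54 with TBX18, and Hk2 with TBX18 then no longer passed (0.76, with 0.5 CPM added). With a pseudocount of 5 CPM, Pdk4 with TBX18 no longer passed (0.54).

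In compartment 2, Slc2a1 with GFP went from 9.40 CPM at day 3 to 28.4 CPM at day 14, 3.02-fold (2.77 to 3.30), and Fabp3 from 118.4 to 46.0 CPM, 0.389-fold (0.373 to 0.405). Ldha with GFP was 1.69-fold higher at day 14 (1.67 to 1.71), whereas with TBX18 it was 0.503-fold (0.498 to 0.507). With GFP, 3 of 8 members passed 2-fold (Slc2a1 and Hk2 upward, Fabp3 downward), against 27.9% of genes tested, with median log2 ratios of 0.37 over the members and 0.05 over all genes. With TBX18, 1 passed (Hk2, upward), against 32.3%, with medians of 0.29 and 0.28. Fabp3 and Ldha with TBX18 lay at the threshold, with log2 ratios of -1.004 and -0.99 (both -0.99 with 0.5 CPM added, as used for the count), and both passed under median-of-ratios scaling. Median-of-ratios scaling moved these ratios by -0.31 with GFP and -0.57 with TBX18.

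Within compartment 2, the cluster with the most Cd36 also had the most Hk2 in each library. In the same order of libraries, Cd36 stood at 12.2, 18.0, 40.5, 67.5 and 20.5 CPM in it, and at 1.32, 0.509, 1.13, 1.02 and 0.897 CPM over the other compartment 2 cells. Clusters of low depth were left out, here and in the comparisons with other cells below. The next cluster for Cd36 was at 9.63, 0.779, 5.09, 2.40 and 3.02 CPM, so GFP at day 3 had a second one, of 26 cells, nearly as high. The clusters with the most Cd36 held 266, 153, 183, 76 and 48 cells, with median depths of 7785 to 20938 UMIs against 15294 to 27259 UMIs for compartment 2 as a whole, and the part of depth in the result was not tested. Hk2, which the choice of cluster did not use, was at 73.4, 160.0, 432.8, 613.9 and 765.0 CPM in them, the first of 7, 8, 8, 13 and 11 clusters. The next cluster for Hk2 was at 40.7, 87.9, 227.4, 554.6 and 427.2 CPM. Slc2a1 ranked first in 3 of these clusters and second in the other 2, at 11.49, 43.2, 41.1, 110.5 and 125.2 CPM. Ldha, also a glucose gene, ranked 7, 6, 5, 1 and 6, at 423.3, 1699, 1100.5, 1181 and 736.0 CPM, against 601.3, 1706, 992.5, 853.1 and 753.3 CPM over the other compartment 2 cells. It was thus higher than in those cells in the GFP and TBX18 libraries of day 14 and not in the other 3. Fabp3 ranked 3, 3, 1, 5 and 3, at 144.3, 96.2, 59.2, 41.6 and 80.9 CPM, against 116.6, 78.8, 45.7, 39.7 and 72.7 CPM over the other compartment 2 cells. It was thus higher than in those cells in all 5 libraries, but ranked first only in GFP at day 14. Slc2a4 and Cpt1b were at most 4.58 and 6.11 CPM in them, both with A83-01. In TBX18 at day 14 the next cluster for Hk2, of 212 cells, had only 1.39 CPM of Cd36. Its Slc2a1, at 132.2 CPM, was above that of the Cd36-rich cluster. High Hk2 with high Slc2a1 was thus not particular to the Cd36-rich cluster in that library. The clusters were made in each library separately, so the match of the Cd36-rich clusters between libraries rests on Cd36 alone.

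The higher Hk2 with TBX18 in compartment 2 at day 3 was as large without the Cd36-rich cluster. Over the other compartment 2 cells, Hk2 was at 17.4 CPM with GFP and 65.7 CPM with TBX18, Ldha at 601.3 and 1706 CPM, and Slc2a1 at 9.28 and 23.5 CPM. Slc2a4 in compartment 2 was uneven too: at day 3 it reached 12.04 CPM in a cluster of 156 cells with GFP and 7.96 CPM in a cluster of 146 cells with TBX18, while the median over clusters was 1.41 and 0.924 CPM. The same clusters had the most Fabp3 of compartment 2, at 293.6 and 226.5 CPM.

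**Figure D3:**
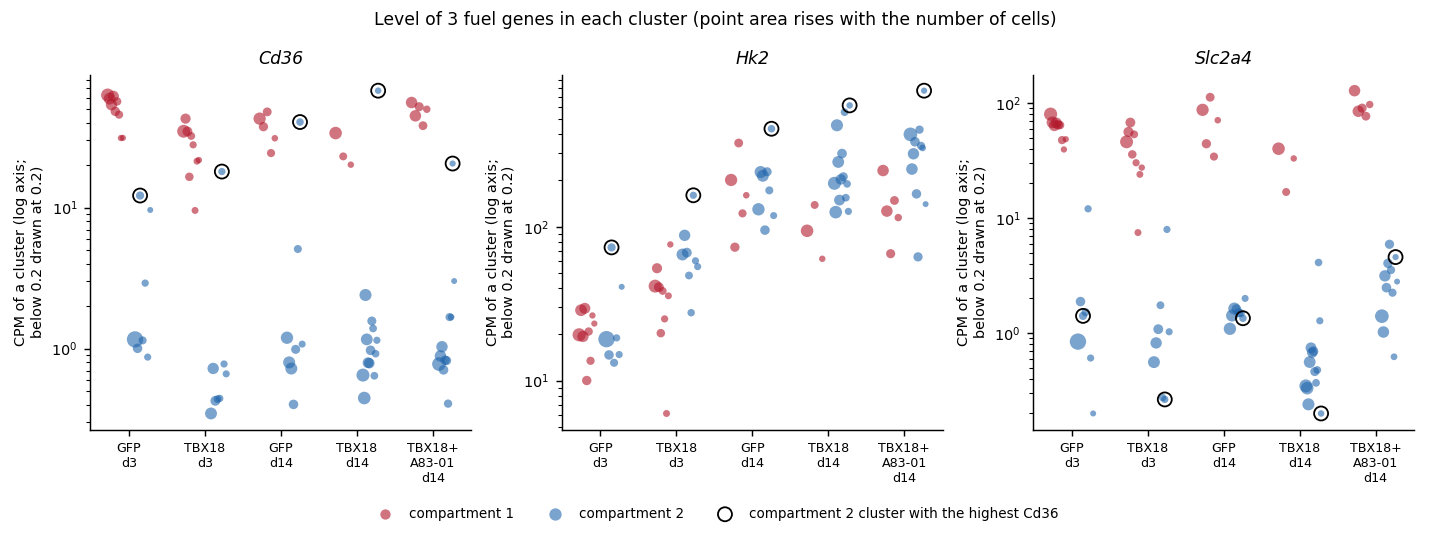
CPM of Cd36, Hk2 and Slc2a4 (log axes) in each cluster of the 5 libraries, coloured by compartment, with point area rising with cell number and a ring around the compartment 2 cluster with the most Cd36; clusters of low depth are not drawn. The ringed cluster is at 12.2 to 67.5 CPM for Cd36 and is the highest compartment 2 cluster for Hk2 in all 5 libraries.

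Compartment 1 varied widely within the TBX18 library of day 3. Over its 9 clusters there (without 1 of low depth), Fabp3 ran from 121.7 to 1575 CPM, whereas in GFP at day 3 it ran from 898.0 to 3042 CPM. The lowest of these TBX18 clusters, of 125 cells, had 177.5 CPM of hTBX18, and was also lowest for Ldha (361.1 CPM), Slc2a1 (5.44 CPM), Slc2a4 (7.48 CPM), Hk2 (6.12 CPM) and Cd36 (9.56 CPM). Cpt1b went against the other members there, at 63.1 CPM the highest of the 9 clusters. The median depth of that cluster was 11695 UMIs, against 29740 UMIs for the compartment. A second cluster, of 307 cells and 31605 UMIs, had 81.9 CPM of hTBX18, 335.5 CPM of Fabp3 and 54.1 CPM of Cpt1b. Its Ldha (2996 CPM) and Slc2a4 (35.8 CPM) were not low. Low Fabp3 also occurred with less hTBX18 than the 23.7 CPM of the compartment. A cluster of 117 cells and 10512 UMIs had 7.73 CPM of hTBX18, 436.9 CPM of Fabp3 and 1211 CPM of Ldha. Another, of 64 cells and 37443 UMIs, had 13.7 CPM of hTBX18 and 639.1 CPM of Fabp3. The parts of depth and transgene in these levels were not tested.

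Cells of compartment 1 with more transgene UMIs had less Fabp3 in all 3 TBX18 libraries. With TBX18 at day 3, Fabp3 was at 1416 CPM in 2205 cells with 0 UMIs of hTBX18, 1263 CPM in 512 cells with 1, 1077 CPM in 185 cells with 2, and 775.5 CPM in 239 cells with 3 or more. In TBX18 at day 14 it was at 1149, 960.4 and 696.4 CPM with 0, 1 and 2 UMIs, the last of these from 23 cells. With A83-01 it was at 1559, 1365, 1316 and 975.2 CPM with 0, 1, 2 and 3 or more. In GFP at day 3 the same bins of EGFP gave 2481, 2367, 2297 and 2189 CPM, a shallower decline. In GFP at day 14 they gave 1714, 1811, 1620 and 1728 CPM, with no steady direction.

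Cells with at least 1 transgene UMI against cells with 0 gave log2 ratios of Fabp3 of -0.36 (-0.38 to -0.34), -0.37 (-0.43 to -0.30) and -0.26 (-0.30 to -0.23) in the TBX18 libraries of day 3, of day 14 and with A83-01. For EGFP the ratios were -0.13 (-0.14 to -0.12) at day 3 and 0.01 (-0.01 to 0.04) at day 14. Cells with transgene UMIs were deeper, with median depths of 31735 against 28790 UMIs in TBX18 at day 3 and 24730 against 19808 UMIs in GFP at day 3. Within 5 equal bins of cells by depth, the Fabp3 ratios with TBX18 at day 3 lay between -1.29 and -0.25, and those with EGFP at day 3 between -0.12 and 0.01. Cells are not replicates, and whether cells with 0 transgene UMIs were infected is not known. ZsGFP was not used to group the cells.

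At day 3, cells with more hTBX18 UMIs had more Cpt1b and less Cd36. Cpt1b was at 30.2, 32.5, 43.8 and 44.9 CPM over the 4 bins, and Cd36 at 34.7, 30.6, 27.8 and 22.8 CPM. The EGFP bins of GFP at day 3 gave 32.6, 30.8, 34.1 and 30.4 CPM for Cpt1b and 55.9, 56.6, 58.3 and 55.2 CPM for Cd36, which is nearly flat. Those of GFP at day 14 gave 85.6, 92.2, 91.4 and 96.3 CPM for Cpt1b and 41.0, 42.8, 34.7 and 33.9 CPM for Cd36. Cells with EGFP UMIs against cells with 0 had log2 ratios there of 0.14 (0.03 to 0.24) and -0.17 (-0.33 to -0.005). For hTBX18 the 2 ratios were 0.33 and -0.30 at day 3. In TBX18 at day 14 they were 0.04 and 0.08, with intervals that held 0. Over the hTBX18 bins of day 3, Slc2a4 was at 47.9, 52.6, 48.8 and 46.2 CPM, with no steady direction. Hk2 was at 40.4, 43.7, 38.2 and 30.05 CPM, and its interval with 3 or more UMIs (26.2 to 34.3 CPM) lay below that with 0 (38.8 to 42.1 CPM). Slc2a1 was at 36.8, 38.5, 36.5 and 30.7 CPM, and its interval with 3 or more (26.9 to 35.0 CPM) lay just below that with 0 (35.3 to 38.4 CPM). The EGFP bins of GFP at day 3 gave 23.3, 21.5, 21.9 and 18.8 CPM for Hk2 and 34.7, 36.6, 37.3 and 31.5 CPM for Slc2a1, so both genes were also lowest with 3 or more UMIs of EGFP. Ldha was at 3580, 3529, 3356 and 3141 CPM over the hTBX18 bins of day 3. Those EGFP bins gave 2158, 2246.5, 2242 and 2289 CPM for it. Cells with hTBX18 UMIs against cells with 0 had a log2 ratio of Hk2 of -0.05 (-0.15 to 0.05) at day 3. It was 0.26 (0.07 to 0.44) at day 14 and 0.17 (0.06 to 0.27) with A83-01. For Ldha these ratios were -0.08 (-0.09 to -0.07), 0.14 (0.09 to 0.19) and 0.29 (0.26 to 0.32). Within bins of depth, Hk2 and Ldha took both signs at day 3 and day 14. Cells of the TBX18 library with 0 hTBX18 UMIs still had 1416 CPM of Fabp3, below the 2481 CPM of GFP cells with 0 EGFP UMIs, and 3580 CPM of Ldha, above the 2158 CPM of those GFP cells.

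**Figure D4:**
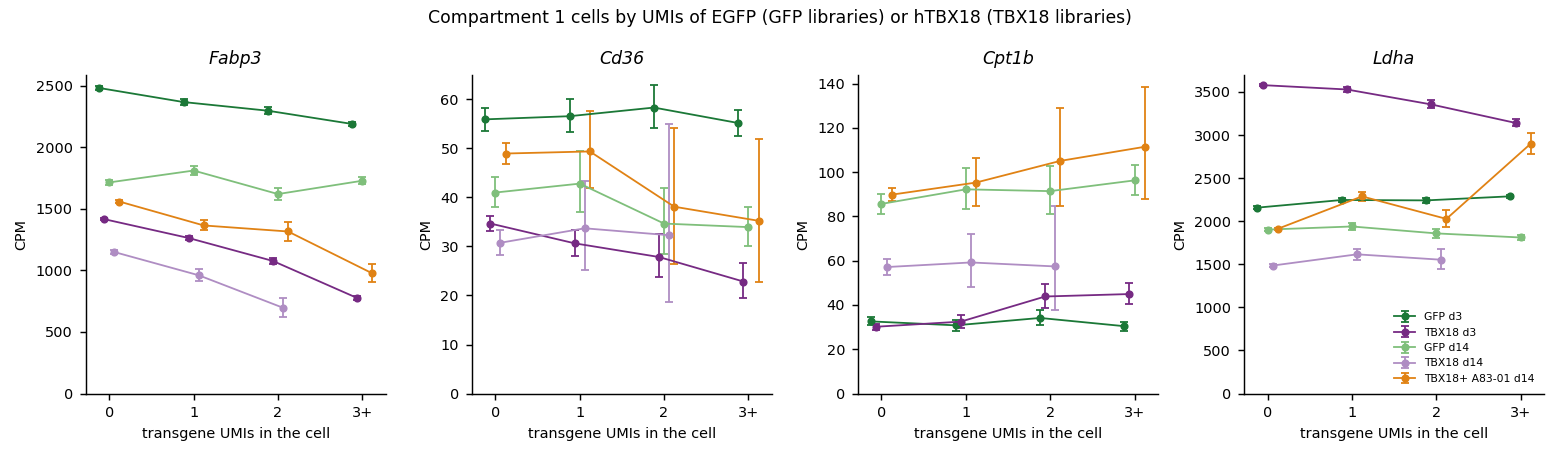
CPM of Fabp3, Cd36, Cpt1b and Ldha in compartment 1 cells with 0, 1, 2 and 3 or more UMIs of EGFP (GFP libraries) or hTBX18 (TBX18 libraries), with exact 95% Poisson intervals; bins with fewer than 20 cells are not drawn. Fabp3 declines from 1416 to 775.5 CPM with TBX18 at day 3, and Cpt1b goes from 30.2 to 44.9 CPM over the same bins.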

How the data were processed

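Single-cell RNA tables of 5 libraries were used as deposited. Their processing names STAR 2.7.8a, Partek and genome build Rnor_6.0, per the submitters' processing notes. Their roles and the filters on cells and genes are not given in the sources used here. What the authors deposited for day 3 are estimated counts of UMIs, with fractions in 252 to 257 genes. For day 14 the authors deposited log2 values, namely of CPM plus 1 computed per cell. UMIs of day 14 were restored by dividing by the value seen most often above 0 in a cell, read as 1 UMI, and this made 99.68% to 99.74% of values whole within 0.05. The recovery was tested on simulated data made from day 3 cells.

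A barcode needed 500 genes to enter. The automatic threshold of Scrublet (scanpy 1.11.5) marked 0% to 2.77% of cells, so the top 6% of its scores in each library were left out, which left 6048 to 7895 cells. Each library was clustered with leidenalg 0.10.2 at resolution 1 (2000 variable genes, 30 components, 20 neighbours), without the 8 members or the virus features. Cluster profiles, centred within a library, were joined by average linkage into 2 compartments. UMIs were summed over a library and compartment, and CPM uses the 15077 features (15074 genes and 3 virus features) that all tables listed. Intervals (95%) are exact: Poisson for sums, binomial on the combined count for ratios, and Clopper-Pearson for shares. Counts past 2-fold use log2 of CPM plus 0.5, and background shares use genes whose mean reached 20 CPM. Printed ratios have no pseudocount, except that those under an alternative setting add 0.5 CPM, or the 5 CPM named.

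The members, lists and settings were chosen with earlier results of these data known. The rule for named genes was to name the 8 members always and other fuel genes and the genes most alike from planned lists. No identifier could be paired with a name through the gene table used here (GRCr8), so those lists, the cell type markers and the genes most alike were not applied, and the design's fallback of 2 unnamed compartments was used. Slc2a4 and Cpt1b had no entry in the promoter table. Alternatives tried were median-of-ratios scaling, no doublet filter, the gene and UMI range of day 14 applied to day 3, equal weight for each cell, a pseudocount of 5 CPM, no minimum mean, clustering with the members, and thinning to 2000 UMIs or none. Leaving out 4 clusters of low depth was added after seeing the data.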

Additional observations from a re-analysis of the deposited data

Results flagged for a closer look

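Several members moved in opposite directions in the 2 compartments, or at the 2 days, under the same contrast, with intervals on either side of 0. These differences between contrasts were not tested, since each group had 1 library. All values are log2 ratios of CPM.

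Adding A83-01 to TBX18 went with opposite signs for 3 genes. Slc2a1 was at -0.63 in compartment 1 and 0.39 in compartment 2. The median over all genes in compartment 1 was -0.38, and with median-of-ratios scaling and 0.5 CPM added Slc2a1 there was at -0.11. Pdk4 was at -0.88 and 1.44, the latter from 25 and 51 UMIs. With 0.5 CPM added, Pdk4 in compartment 1 was at -0.74, and at -0.30 under median-of-ratios scaling. In compartment 2 it was at 0.63 under either scaling. Cd36 was at 0.65 and -0.68, the latter from 182 and 85 UMIs. The compartment 2 cluster with the most Cd36 was at 67.5 CPM (76 cells) in TBX18 at day 14 and 20.5 CPM (48 cells) with A83-01. The other compartment 2 cells were at 1.02 and 0.897 CPM, a smaller difference in the same direction.

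TBX18 against GFP went with opposite signs at the 2 days for 3 glucose genes in compartment 1. Slc2a1 was at 0.088 at day 3 and -0.66 at day 14, Hk2 at 0.90 and -0.89, and Ldha at 0.66 and -0.32. In compartment 2, Ldha was at 1.53 at day 3 and -0.22 at day 14. At day 14 Hk2 also differed in sign between compartments, at -0.89 in compartment 1 and 0.35 in compartment 2.

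Between day 3 and day 14 with GFP, Ldha was at -0.24 in compartment 1 and 0.75 in compartment 2.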

How the results depend on the processing

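Of 560 log2 ratios of a member recomputed under 7 alternatives, 405 stayed within the counting interval of the value reported, 152 moved beyond it, and 3 whose interval had left out 0 turned sign, all under median-of-ratios scaling: Slc2a4 between days with GFP in compartment 1 (-0.25), and Slc2a1 (-0.28) and Cd36 (-0.12) between days with TBX18 in compartment 2. For TBX18 against GFP at day 14 in compartment 2, 2 ratios whose interval held 0 also moved beyond it and turned sign: Slc2a1 under that scaling (-0.095) and Cpt1b with no doublets left out (-0.24). Median-of-ratios scaling moved 55 of its 80 ratios, the most of any alternative. It gave 2 members past 2-fold for TBX18 against GFP at day 14 and 4 for A83-01, both in compartment 1, and 3 between days with TBX18 in compartment 2. The last count was also 3 with no doublets left out and when day 3 cells were held to the day 14 range, and 2 with each cell weighted equally; Fabp3 and Ldha had stood just short of the threshold (-0.99 each, with 0.5 CPM added). With no doublets left out, 1 member passed for TBX18 against GFP at day 14 in compartment 2. A pseudocount of 5 CPM gave 0 in 2 comparisons that had Slc2a4 as their 1 member: TBX18 against GFP at day 14 in compartment 1 and A83-01 in compartment 2. It also took the call of Pdk4 between days with TBX18 in compartment 1 (0.54), which left 2 members. Dropping the minimum mean changed no count of members, but it changed the background shares and medians: the median over all genes went from -0.09 to 0.02 for TBX18 against GFP at day 3 and from 0.10 to 0.25 between days with GFP, both in compartment 1. Leaving out low-depth clusters moved 3 of 80 ratios, and no count.

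Classes from each cell's own markers, a fibroblast-only class and clustering with the wider fuel lists were not run, since they need gene names. No paired analysis was possible because each group had 1 library. Pdk4 in compartment 2, with 3 to 51 UMIs a library, is at the limit of this depth.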
